A study of Mus musculus with 9 samples.

Results

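The 9 homeobox genes Hoxa5, Hoxa7, Hoxa9, Hoxa10, Hoxb4, Hoxb5, Meis1, Pbx2 and Pbx3 were followed in bone marrow progenitor cells of control mice and in transgene-negative and transgene-positive cells of mice transplanted with cells given a transgene called dnMPL. They were taken by name, 9 of 18193 named genes, with every probe set that the array's annotation assigns to exactly 1 of these symbols, which gave 18 of the 45101 probe sets on the array. Of these, 16 had a mean level above the filter on dim probe sets and were tested, among 27022 probe sets tested in all, and each of the 9 genes kept at least 1. The other 2, Hoxa10 1446408_at and Pbx3 1447640_s_at, lay below that filter.

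The study measured RNA of Lin-Sca1+cKit+ (LSK) cells, a sorted marrow fraction that holds blood stem cells and multipotent progenitors, on Affymetrix mouse arrays. All animals were C57BL6 mice, lethally irradiated and transplanted, and cells were sorted 8 weeks after transplantation. The control group received wild type LSK cells. The other groups came from recipients of cells transduced with a retroviral dnMPL vector: the group dnMPL GFP neg held LSK cells without GFP, and the group dnMPL GFP pos held LSK cells with GFP, the marker of cells that carry the transgene. There were 3 arrays in a group, each hybridised with RNA from marrow pooled over 2 to 5 mice. The labels do not say whether both dnMPL fractions came from the same mice, nor whether control cells were cultured or carried an empty vector, so transduction, culture and dnMPL cannot be told apart. The labels list the arrays as separate samples and do not state separate pools for each, so p-values measure the spread between these arrays. All levels below are log2 RMA values, in which a difference of 1 is a doubling, and every difference is the first group minus the second.

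HOX genes lie in clusters and encode homeodomain transcription factors. In blood formation the genes of the middle of the Hoxa cluster and Hoxb4 are known for high expression in stem cells and early progenitors and for falling as cells mature. PBX and MEIS proteins belong to the TALE class of homeodomain proteins and bind DNA together with HOX proteins. MEIS1 is a known partner of HOXA9 in stem cells and in leukemia, and the methyltransferase KMT2A, which binds DNA rich in unmethylated CpG, maintains expression of Hoxa genes.

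Hoxa5, Hoxa7 and Hoxa9 are neighbours on the minus strand of chromosome 6, with Hoxa6 between Hoxa5 and Hoxa7, and the bases just upstream of their starts are shown because the results turn on Hoxa5 and Hoxa9 and these stretches differ in CpG content. The windows are the 250 bases before the annotated start in RefSeq, build GRCm38.p6, at chr6:52204588-52204837 for Hoxa5, chr6:52218574-52218823 for Hoxa7 and chr6:52227371-52227620 for Hoxa9. They are written 5′ to 3′ on the gene's strand, with each CpG in capitals.
Hoxa5: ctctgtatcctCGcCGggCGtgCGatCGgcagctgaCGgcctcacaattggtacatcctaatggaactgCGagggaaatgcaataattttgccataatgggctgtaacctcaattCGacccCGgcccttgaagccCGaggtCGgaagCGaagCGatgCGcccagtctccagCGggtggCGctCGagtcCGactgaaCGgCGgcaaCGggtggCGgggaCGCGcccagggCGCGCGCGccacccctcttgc
Hoxa7: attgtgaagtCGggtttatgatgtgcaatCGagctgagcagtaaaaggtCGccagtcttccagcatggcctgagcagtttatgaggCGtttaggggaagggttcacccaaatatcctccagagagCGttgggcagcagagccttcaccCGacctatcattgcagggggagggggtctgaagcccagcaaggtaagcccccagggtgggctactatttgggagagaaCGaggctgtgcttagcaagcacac
Hoxa9: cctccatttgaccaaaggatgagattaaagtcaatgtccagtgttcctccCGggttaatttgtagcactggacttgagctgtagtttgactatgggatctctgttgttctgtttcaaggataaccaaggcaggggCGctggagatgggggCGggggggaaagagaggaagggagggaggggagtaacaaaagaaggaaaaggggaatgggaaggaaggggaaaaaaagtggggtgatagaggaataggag
The Hoxa5 window held 28 CpG, more than 92.4% of 32851 promoter windows of the same length. The Hoxa7 window held 7 and the Hoxa9 window 3, against a median of 6 over all windows. The windows were also searched on both strands, with Hoxa10, Hoxb4, Meis1 and Pbx2, for TGATNNAT (a HOX-PBX motif, in 7.68% of all windows), TGACAG (a MEIS motif, in 15.9%) and TTTATNG (a posterior HOX motif, in 9.81%). None of these letters occurred in the 8 windows of the 7 genes that had an entry, of which Hoxa10 had 2.

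Most of these probe sets had a lower mean in the dnMPL fractions than in control, and the largest joint differences, each by 1 probe set, were those of Hoxa5 (-1.22), Hoxa10 (-0.96) and Meis1 (-0.82). No probe set of these genes passed the test in any comparison (0 of 16), and neither did any other probe set on the array (0% of 27022, limma with Benjamini-Hochberg adjustment at 0.05). The smallest adjusted p of a member was 0.748 for GFP-positive cells against control, 0.891 for GFP-negative cells against control, 1.0 between the fractions and 0.589 for both dnMPL fractions jointly (limma, Benjamini-Hochberg). At an unadjusted limma p under 0.05, these comparisons held 3, 1, 2 and 1 member probe sets, all lower in the first group, while the share of all probe sets below that p was 5.88%, 5.31%, 2.71% and 6.65% in either direction and 2.72%, 2.36%, 1.49% and 3.1% in the lower direction alone. Of the 16 probe sets, 13 had a lower mean in GFP-positive cells than in control, 12 in GFP-negative cells and 13 in both fractions jointly, against 51.6%, 50.8% and 51.3% of all probe sets tested. Between the fractions 11 of 16 were lower in GFP-positive cells, against 49.8% of all. The median difference of the 16 was -0.45, -0.39 and -0.38 in these comparisons, and that of all probe sets tested was -0.016, -0.0098 and -0.013. The 3 comparisons share the control arrays, so their directions are not separate observations. Counting only the brightest probe set of each gene, 7 of 9 were lower in both fractions jointly, with a median of -0.60.

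**Figure D1:**
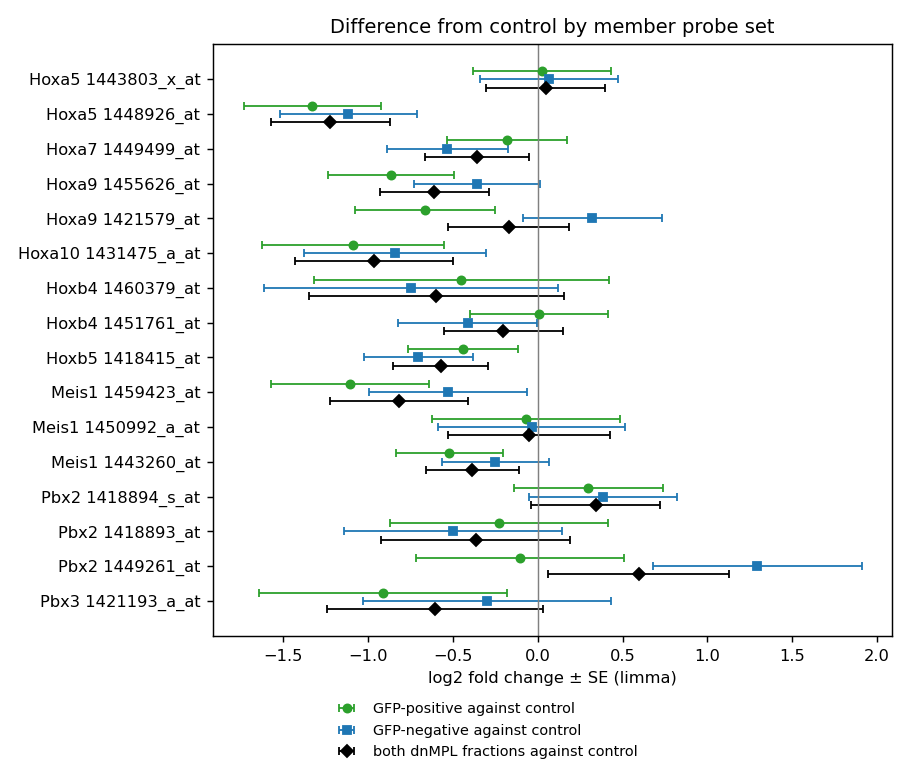
Differences from control on the log2 scale for the 16 member probe sets tested; points are limma estimates and bars ± 1 SE, in green for GFP-positive, blue for GFP-negative and black for both dnMPL fractions jointly. The point for Hoxa5 1448926_at lies farthest below 0 in the joint comparison (-1.22), and the other Hoxa5 probe set lies near 0 (0.05).

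Hoxa5, a HOX gene of the middle of its cluster, differed most by its probe set 1448926_at. Its level was 7.06, 6.87 and 6.60 on the control arrays, 6.00, 5.43 and 5.75 in GFP-negative cells, and 4.80, 5.38 and 6.36 in GFP-positive cells. Every dnMPL array lay below every control array, with GFP-positive array 3 close to the lowest control. The difference was -1.33 ± 0.40 (SE, n = 3 against 3) for GFP-positive cells, limma adjusted p = 0.748, and -1.12 ± 0.40 for GFP-negative cells, limma adjusted p = 0.891 (Benjamini-Hochberg). For both fractions jointly it was -1.22 ± 0.35 (n = 6 against 3), with a limma adjusted p of 0.589 and an exact two-sided permutation p of 0.0238, the smallest that 6 against 3 arrays can give. That permutation p is for 1 probe set, unadjusted for the many that were measured. It also takes the 6 dnMPL arrays as independent, which they are not if both fractions came from the same mice. The fractions themselves differed by -0.21 ± 0.40. Groups that did not overlap in the joint comparison made up 1.85% of all probe sets tested in this direction, and 2 of the 16 members were among them, Hoxa5 1448926_at and Hoxa9 1455626_at. In the upward direction the share was 1.51%, with 0 members.

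The other Hoxa5 probe set, 1443803_x_at, did not show this difference. Its level was 5.61, 6.99 and 5.56 in control, 6.09, 6.18 and 6.09 in GFP-negative cells, and 5.75, 6.09 and 6.39 in GFP-positive cells. The dnMPL arrays lay between the control arrays throughout, and the joint difference was 0.05 ± 0.35 (limma adjusted p = 0.993, Benjamini-Hochberg; exact permutation p = 1.0). The ending _x_at marks a probe set whose probes may also bind other transcripts. With the mean of both probe sets taken for Hoxa5, the joint difference was -0.59.

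Hoxa7, the next member along the cluster, had a level of 6.01, 6.14 and 6.36 in control, 4.85, 6.01 and 6.06 in GFP-negative cells, and 6.01, 6.01 and 5.94 in GFP-positive cells. All 6 dnMPL arrays lay below the control mean of 6.17, but only GFP-negative array 1 lay well apart from the rest, and the groups overlapped. The joint difference was -0.36 ± 0.31 (limma adjusted p = 0.901, Benjamini-Hochberg; exact permutation p = 0.0952), and -0.16 without GFP-negative array 1.

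Hoxa9, the HOX gene best known for a role in stem cell self-renewal and in myeloid leukemia, had 2 probe sets. Both had their lowest group mean in GFP-positive cells, and they differed in whether GFP-negative cells were also lower than control. By 1455626_at its level was 9.70, 9.51 and 9.54 in control, 8.90, 9.37 and 9.42 in GFP-negative cells, and 7.95, 8.89 and 9.32 in GFP-positive cells. The control arrays lay close together and all 6 dnMPL arrays lay below them, by little in GFP-negative arrays 2 and 3 and in GFP-positive array 3. The difference from control was -0.86 ± 0.37 in GFP-positive cells, limma adjusted p = 0.836, and -0.36 ± 0.37 in GFP-negative cells, limma adjusted p = 0.950 (Benjamini-Hochberg). Jointly it was -0.61 ± 0.32 (limma adjusted p = 0.794, exact permutation p = 0.0238, with the limits given for Hoxa5). Without GFP-positive array 1 the difference in GFP-positive cells was -0.48, and without GFP-negative array 1 that in GFP-negative cells was -0.19. With the mean of both probe sets taken for Hoxa9, the differences were -0.77 in GFP-positive and -0.017 in GFP-negative cells.

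By 1421579_at, Hoxa9 was at 7.31, 7.44 and 6.52 in control, 7.24, 7.20 and 7.80 in GFP-negative cells, and 6.02, 6.06 and 7.20 in GFP-positive cells. Here GFP-positive arrays 1 and 2 were below every other array, while GFP-negative cells overlapped control. The difference between GFP-positive and GFP-negative cells was -0.99 ± 0.41, the largest between the fractions for any HOX probe set tested, with an unadjusted limma p of 0.0389 and an adjusted p of 1.0 (Benjamini-Hochberg). By 1455626_at the same difference was -0.51 ± 0.37, and -0.12 without GFP-positive array 1. Both probe sets of Hoxa9 had a lower mean in GFP-positive cells than in either other group, and neither difference passed the test.

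Hoxa10, the neighbour of Hoxa9 and a regulator of myeloid and megakaryocytic progenitors, was at 5.84, 7.15 and 5.70 in control by 1431475_a_at. It was at 4.93, 5.90 and 5.34 in GFP-negative cells and at 4.44, 4.87 and 6.11 in GFP-positive cells. All 6 dnMPL arrays lay below the control mean of 6.23, but GFP-negative array 2 and GFP-positive array 3 lay above 2 of the control arrays. The joint difference was -0.96 ± 0.46 (limma adjusted p = 0.781, Benjamini-Hochberg; exact permutation p = 0.143), and it was -0.51 without control array 2. Hoxa10 1446408_at lay between 1.19 and 1.70 on all 9 arrays, below the filter.

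In Hoxa5 1448926_at, Hoxa9 1455626_at and Hoxa10 1431475_a_at, GFP-positive array 1 was the lowest of all 9 arrays and GFP-positive array 3 the highest of its group. The SD over GFP-positive arrays was 0.79, 0.70 and 0.87 for these probe sets, against 0.29, 0.28 and 0.49 in GFP-negative cells. In control it was 0.23, 0.10 and 0.80, so for Hoxa10 control spread nearly as widely as GFP-positive cells.

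**Figure D2:**
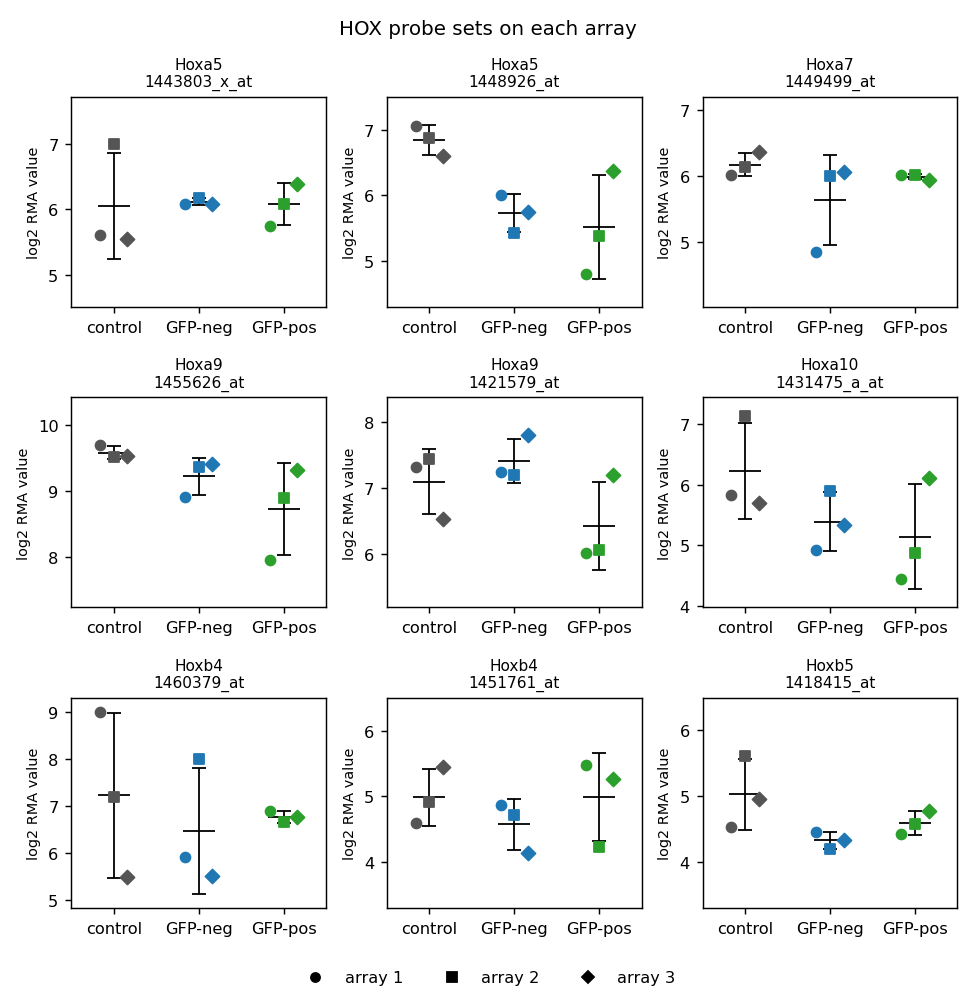
Levels (log2 RMA value) of the 9 HOX probe sets tested, on each of 3 arrays per group, with the group mean and SD as bars; axes differ between panels and do not start at 0. In Hoxa5 1448926_at and Hoxa9 1455626_at all 6 dnMPL arrays lie below the 3 control arrays, and in Hoxb4 1460379_at control arrays range from 5.48 to 8.99.

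Hoxb4, long studied for the expansion of blood stem cells when overexpressed, varied more within groups than between them. By 1460379_at it was at 8.99, 7.18 and 5.48 in control, 5.91, 8.00 and 5.50 in GFP-negative cells, and 6.89, 6.64 and 6.76 in GFP-positive cells. Its within-group SD of 1.28 exceeded that of 95.9% of the probe sets tested. The joint difference was -0.60 ± 0.75 (exact permutation p = 0.524). It became 0.29 without control array 1 and -1.47 without control array 3. By 1451761_at Hoxb4 was at 4.59, 4.92 and 5.45 in control, 4.86, 4.72 and 4.14 in GFP-negative cells, and 5.48, 4.23 and 5.27 in GFP-positive cells, a joint difference of -0.20 ± 0.35 (exact permutation p = 0.595), and the groups overlapped.

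Hoxb5, whose expression is used to mark long-term blood stem cells in mice, was at 4.53, 5.60 and 4.95 in control, 4.45, 4.19 and 4.33 in GFP-negative cells, and 4.41, 4.58 and 4.77 in GFP-positive cells. All 3 GFP-negative arrays lay below all control arrays, and GFP-positive cells overlapped control through control array 1. The difference was -0.70 ± 0.32 in GFP-negative cells, limma adjusted p = 0.913, and -0.44 ± 0.32 in GFP-positive cells, limma adjusted p = 0.931 (Benjamini-Hochberg). The joint difference was -0.57 ± 0.28 (exact permutation p = 0.0714). Without control array 2 these differences were -0.42, -0.15 and -0.29. In GFP-negative cells against control, 3 member probe sets (Hoxa5, Hoxa9 and Hoxb5) lay wholly below control, a pattern held by 5.71% of all probe sets tested, and 1 (Pbx2 1449261_at) lay wholly above it, as did 5.13%. In GFP-positive cells 2 member probe sets lay wholly below control (4% of all) and 0 above (4.39% of all).

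Among the cofactors, Meis1 gave different readings by probe set. By 1459423_at it was at 8.52, 8.57 and 9.56 in control, 8.95, 7.98 and 8.14 in GFP-negative cells, and 8.62, 7.38 and 7.34 in GFP-positive cells. GFP-positive arrays 2 and 3 were the lowest of all, but GFP-positive array 1 lay within the control range. The difference in GFP-positive cells was -1.11 ± 0.47 (limma adjusted p = 0.828, Benjamini-Hochberg; exact permutation p = 0.3). The joint difference was -0.82 ± 0.40 (exact permutation p = 0.143), and -0.48 without control array 3.

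By 1450992_a_at Meis1 was at 7.60, 7.98 and 7.29 in control, 7.47, 8.36 and 6.92 in GFP-negative cells, and 6.35, 8.32 and 7.99 in GFP-positive cells, a joint difference of -0.053 ± 0.48. Here GFP-positive array 1, not arrays 2 and 3, was the low one. By 1443260_at Meis1 was at 6.91, 7.31 and 7.19 in control, 6.79, 6.63 and 7.25 in GFP-negative cells, and 6.33, 6.44 and 7.08 in GFP-positive cells, a joint difference of -0.39 ± 0.27 (exact permutation p = 0.143). The 3 Meis1 probe sets did not share an order of the arrays, and the sign for 1450992_a_at depended on the arrays used, from -0.25 to 0.25 with 1 array left out.

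Pbx2, a broadly expressed PBX protein, had 3 probe sets with different signs. By 1449261_at it was at 6.99, 7.01 and 5.76 in control, 7.14, 7.19 and 9.32 in GFP-negative cells, and 6.08, 6.40 and 6.96 in GFP-positive cells. GFP-negative cells lay wholly above both other groups, but arrays 1 and 2 only by little and array 3 by far. The difference was 1.30 ± 0.61 against control, limma adjusted p = 0.917, and GFP-positive minus GFP-negative was -1.40 ± 0.61, limma adjusted p = 1.0 (Benjamini-Hochberg). Without GFP-negative array 3 these became 0.58 and -0.68. It was the 1 member probe set of 16 without overlap between the fractions, where 2.78% of all probe sets lay wholly lower in GFP-positive cells and 3.69% wholly higher. Hoxa9 1421579_at counted as overlapping only through an equal value of 7.20 on GFP-negative array 2 and GFP-positive array 3.

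The other Pbx2 probe sets did not repeat this. By 1418894_s_at Pbx2 was at 7.79, 8.46 and 6.60 in control, 8.00, 7.99 and 8.00 in GFP-negative cells, and 7.97, 7.63 and 8.15 in GFP-positive cells, a joint difference of 0.34 ± 0.38 that was -0.17 without control array 3. By 1418893_at it was at 7.18, 8.22 and 7.89 in control, 7.88, 7.88 and 6.03 in GFP-negative cells, and 8.00, 6.34 and 8.26 in GFP-positive cells. There GFP-negative array 3 was the lowest array, where it was the highest by 1449261_at, and the joint difference was -0.36 ± 0.56. It was -0.056 without GFP-negative array 3 and -0.0040 without control array 3 and GFP-positive array 2.

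Pbx3, a PBX protein that works with HOXA9 in leukemia cells, was near the filter level of 4.03. By 1421193_a_at it was at 6.73, 3.75 and 4.30 in control, 5.55, 4.46 and 3.87 in GFP-negative cells, and 4.40, 3.64 and 4.00 in GFP-positive cells. Array 1 was the highest of each group. The joint difference was -0.61 ± 0.64 (exact permutation p = 0.476), and 0.30 without control array 1. Pbx3 1447640_s_at ranged from 1.44 to 5.31 over the 9 arrays and was not tested.

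**Figure D3:**
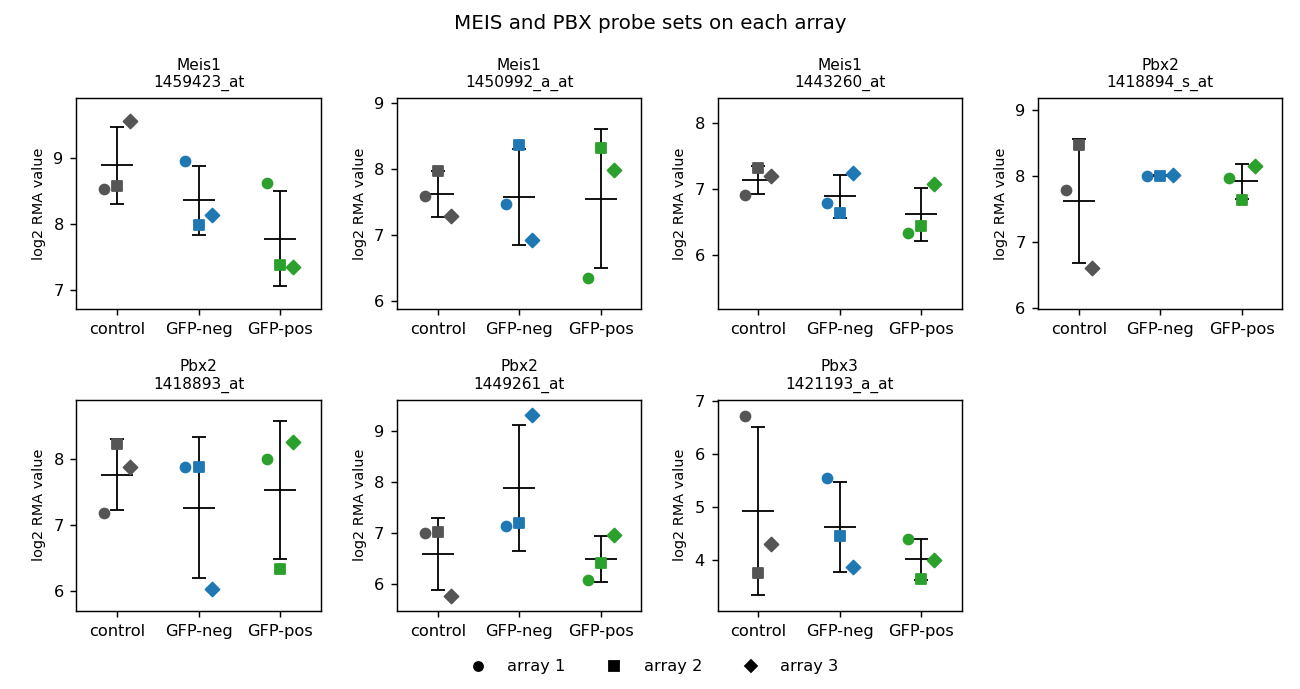
Levels (log2 RMA value) of the 7 Meis1, Pbx2 and Pbx3 probe sets tested, on each of 3 arrays per group, with the group mean and SD as bars; axes differ between panels and do not start at 0. GFP-negative array 3 is the highest array in Pbx2 1449261_at (9.32) and the lowest in Pbx2 1418893_at (6.03).

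**Figure D4:**
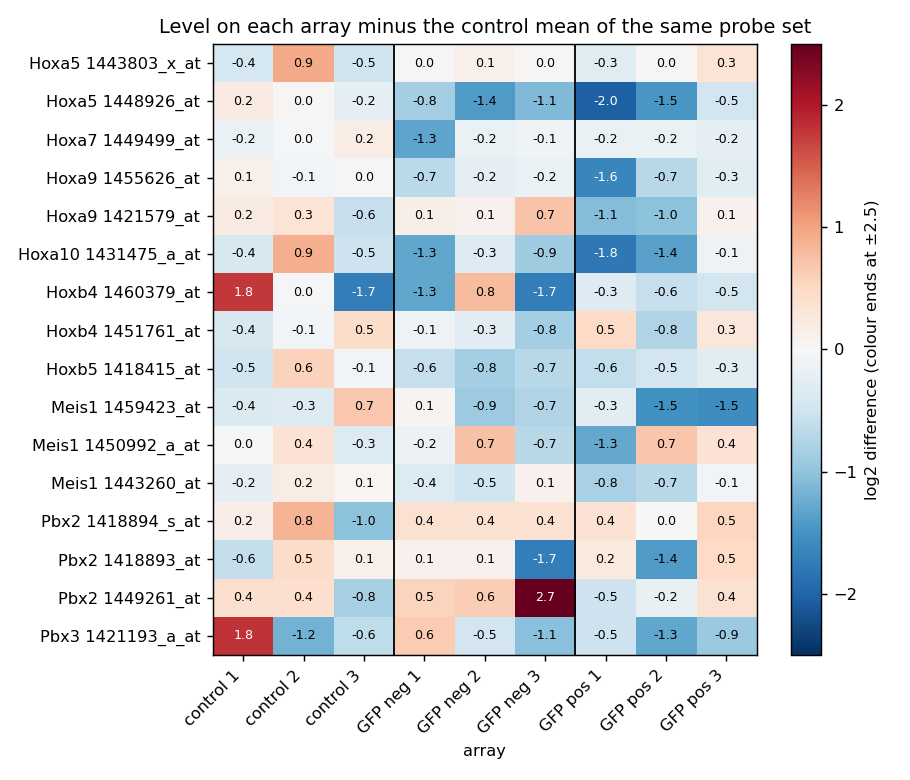
Level on each of the 9 arrays minus the control mean of the same probe set, in log2 units, for the 16 member probe sets tested; blue is below and red above the control mean. Hoxa5 1448926_at, Hoxa7 1449499_at, Hoxa9 1455626_at, Hoxa10 1431475_a_at and Hoxb5 1418415_at are below 0 on all 6 dnMPL arrays, Pbx2 1418894_s_at is above 0 on all 6, and the remaining probe sets hold both signs there.

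Array quality and marker genes of several cell types were read beside these values. Array medians were 4.52 to 4.64 and correlations between arrays 0.886 to 0.970. Control array 3 and GFP-positive array 2 stood apart by a larger gap between the 3′ and 5′ probe sets of Gapdh, a sign of RNA that is less complete at its 5′ end: 3.87 and 3.22, against 2.47 to 2.89 on the others. Without both arrays the joint differences of Hoxa5 1448926_at and Hoxa9 1455626_at were -1.31 and -0.68, and neither overlapped control. Those of Meis1 were then -0.38 by 1459423_at, -0.41 by 1450992_a_at and -0.31 by 1443260_at, each with overlapping groups. Of the LSK markers, 8 of 10 had a named probe set, and their mean level was 8.27 to 8.53 in control, 7.64 to 7.99 in GFP-negative and 7.86 to 7.91 in GFP-positive cells. That list includes Meis1 1459423_at, a member, and of its 7 markers above the filter 3 were higher in the dnMPL fractions jointly (Cd34, Flt3 and Cd48) and 4 lower, with Procr, a stem cell surface marker, at a mean of 8.04 in control, 5.64 in GFP-negative and 6.53 in GFP-positive cells. Granulocyte markers (11 of 12 measured, all 11 higher in the dnMPL fractions jointly, median difference 2.61) had a mean level of 6.80 to 9.28 in control, 9.52 to 10.96 in GFP-negative and 10.37 to 11.38 in GFP-positive cells. Erythroid markers (8 of 10 measured, 6 of them higher) were at 5.09 to 5.25, 6.47 to 6.89 and 6.69 to 7.19. Monocyte and macrophage markers (7 of 8 measured, 5 above the filter, 4 of those higher) were at 4.60 to 4.83, 5.55 to 6.34 and 5.10 to 6.62. Fcgr1 was lower, at a mean of 4.49, 4.12 and 3.92, and Csf1r was at 3.62 on GFP-positive array 2, against a control mean of 5.38. T and NK cell markers (4 of 6 measured, 2 above the filter, those 2 higher, median 0.094) were at 4.51 to 4.78, 4.82 to 5.11 and 4.85 to 5.09. Endothelial and stromal markers (6 of 6 measured, 3 above the filter, 2 of those higher, median 0.16) were at 4.03 to 4.22, 3.79 to 4.44 and 3.78 to 4.79. In that list Emcn had means of 6.18, 4.36 and 4.14, and Cxcl12 of 3.62, 4.98 and 5.68. Mast cell and basophil markers (5 of 5 measured, 4 above the filter, those 4 higher, median difference 1.06) were at 4.54 to 4.64, 4.73 to 6.37 and 5.15 to 6.79. B cell markers (7 of 8 measured, 6 higher, median 1.08) were at 4.32 to 6.35, 5.39 to 6.27 and 6.48 to 7.01. Megakaryocyte markers (5 of 6 measured, 4 above the filter, 1 of those higher, median -0.50) were at 5.48 to 6.21, 5.46 to 6.15 and 4.93 to 5.48. RMA levels have no 0, but Cd14 and Adgre1 among the monocyte markers and Slamf1 among the LSK markers were below the filter. The part of these markers in the HOX values was not tested, and in such bulk RNA fewer cells of a type and less RNA per cell cannot be told apart.

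Other genes of the same system were read from lists of each kind, with 1 probe set per gene, and none of their genes passed the test in either direction. Of 33 other HOX cluster genes, 27 had a named probe set and 9 were tested, of which 7 were lower in both dnMPL fractions jointly (median -0.17, against -0.013 over all probe sets). In GFP-negative cells all 9 were lower than control (median -0.19), and in GFP-positive cells 5 of 9 were (median -0.12). The smallest p-values belonged to Hoxc5 (-0.54 ± 0.25), Hoxb3 (-0.46 ± 0.29) and Hoxd12 (-0.39 ± 0.30), with limma adjusted p of 0.767, 0.837 and 0.878 (Benjamini-Hochberg). By cluster, 5 of 9 named genes were tested for Hoxa, 5 of 9 for Hoxb, 3 of 7 for Hoxc and 2 of 8 for Hoxd.

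**Figure D5:**
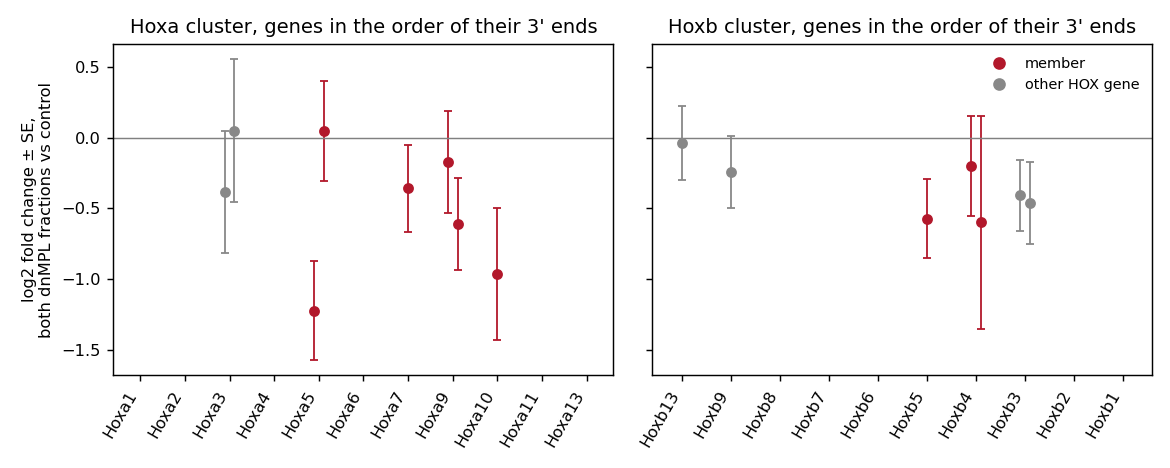
Joint difference from control (log2, limma estimate ± 1 SE) of every tested probe set of the Hoxa and Hoxb clusters, with genes in the order of their 3′ ends on the chromosome and members in red; genes with no point had no tested probe set. Hoxb3 lies below 0 by both its probe sets (-0.41 and -0.46) and Hoxa3 on either side of it (-0.38 and 0.05).

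Of the other TALE cofactors 7 of 11 were tested and 6 were lower jointly (median -0.18). Tgif2, a TALE repressor, differed by -0.81 ± 0.52, Pbx4 by -0.40 ± 0.33, Pknox1, which pairs with PBX proteins, by 0.18 ± 0.37 and Pknox2 by -0.18 ± 0.26. Meis2 lay between 2.78 and 3.68, below the filter. Of 20 regulators of HOX loci 16 were tested and 12 were lower jointly (median -0.10), against 51.3% of all probe sets tested. Of the 16, 1 had an unadjusted limma p under 0.05, near the share of 6.65% over all probe sets tested. That gene was Psip1, which encodes LEDGF, a chromatin tether of the KMT2A complex. Its level was 8.12, 7.47 and 7.86 in control, 6.64, 7.54 and 7.31 in GFP-negative cells and 6.84, 6.10 and 7.30 in GFP-positive cells, a joint difference of -0.86 ± 0.34 with overlapping groups (limma adjusted p = 0.713, Benjamini-Hochberg). Kmt2a differed by -0.46 ± 0.32, Cdx2 by -0.34 ± 0.26 and Men1, which encodes menin, the KMT2A cofactor, by 0.06 ± 0.31.

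Targets and partners described for HOXA9 and MEIS1 were all tested, 20 of 20. In the joint comparison 13 were lower (median -0.11), 3 had an unadjusted limma p under 0.05 and the same 3 lay wholly below control: Lmo2, Erg and Msi2. Over all probe sets tested the shares were 6.65% at that p in either direction, 3.1% at that p and lower, and 1.85% wholly below control. Wholly below control were also 6 of the 20 in GFP-positive cells (4% of all probe sets) and 4 of the 20 in GFP-negative cells (5.71% of all). Lmo2, an adaptor of stem cell transcription factor complexes, was at 11.21, 11.22 and 11.48 in control, 10.63, 10.54 and 10.78 in GFP-negative cells and 10.35, 10.22 and 10.70 in GFP-positive cells, a difference of -0.77 ± 0.23 (limma adjusted p = 0.592, Benjamini-Hochberg). Erg, an ETS factor of stem cells, was at 10.61, 10.55 and 10.93 in control, 9.62, 10.13 and 9.71 in GFP-negative cells and 10.12, 8.79 and 10.10 in GFP-positive cells, a difference of -0.95 ± 0.34 (limma adjusted p = 0.687, Benjamini-Hochberg). Msi2, an RNA-binding regulator of stem cell self-renewal, was at 11.43, 11.51 and 11.44 in control, 11.21, 11.10 and 10.70 in GFP-negative cells and 10.80, 10.62 and 11.12 in GFP-positive cells, a difference of -0.54 ± 0.24 (limma adjusted p = 0.747, Benjamini-Hochberg). In all 3 genes the fractions overlapped each other. Flt3, a cytokine receptor of lymphoid-primed progenitors, differed by 0.01 ± 0.24. Of 15 other homeobox genes of blood cells 9 were tested and 6 were lower (median -0.08): Hhex differed by -0.69 ± 0.35, Zfhx3 by -0.64 ± 0.34 without overlap, and Satb1 by 0.48 ± 0.32.

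The genes whose levels followed those of 3 members most closely over the 9 arrays were sought among 6114 genes, as a description that mixes differences between groups and within them. For Hoxa9 they were Mecom (Pearson r = 0.955), Pold2 (0.943) and Dgkq (0.932). Mecom, a zinc finger regulator of stem cells, was at 7.87, 7.35 and 7.49 in control, 7.20, 7.13 and 7.48 in GFP-negative cells and 5.73, 6.95 and 7.33 in GFP-positive cells, and so had its lowest value on GFP-positive array 1, as Hoxa9 did. For Meis1 they were Mpg (0.878), Arid4a (0.866) and 4930480K15Rik (0.839), and for Hoxb4 Dnajc21 (0.982), Snap23 (0.911) and Rfng (0.910).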

How the data were processed

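The authors deposited log2 values made by RMA (version not stated), per the submitters' processing notes. Scanner files were not used here. RNA was amplified and labelled with biotin, per the labels' protocols. RMA summaries gave 5 member probe sets (19019 of all 45101) the same value on 2 or more arrays, which can make their spread look small. Of the 45037 probe sets left without 64 controls, the platform annotation names 1 gene for 34945, several for 932 and none for 9160, and 34741 were matched to RefSeq by Entrez number. Probe sets with a mean over the 9 arrays above the 40th percentile (4.03) were tested, 27022 in all. A mean per group was estimated by limma's lmFit and eBayes from the 9 arrays together (limma 3.58.1, R 4.3.3), with Benjamini-Hochberg adjustment over all probe sets tested and a threshold of 0.05; the steps were tested on simulated data. Single probe sets also had an exact two-sided permutation test, which cannot go below 0.1 for 3 against 3 arrays and 0.02381 for 6 against 3. The test of 6 against 3 takes the dnMPL arrays as independent, which the labels do not state. The number of arrays limits the precision.

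The genes were given by name, and they and the lists beside them were chosen with earlier results of these data known. Named in addition were the 3 genes of each list with the smallest p in the joint comparison; Meis2, Pknox1, Kmt2a, Men1 and Flt3; and for Hoxa9, Meis1 and Hoxb4 the 3 genes most correlated over the arrays, among tested genes with an SD of at least 0.5, each by its brightest probe set. Results for 1 item are not reported here. Motif counts and CpG counts are for the 250 bases before the RefSeq start, and Hoxb5 and Pbx3 had no entry. No paired origin is stated for the dnMPL fractions, so the array numbers were not taken to pair the samples. Deviations of same-numbered arrays from their group means correlated at -0.252 to 0.0905 over all pairs of groups. Between GFP-negative and GFP-positive arrays 1, 2 and 3 they correlated at 0.0905, -0.031 and -0.068. With 3 arrays in a group these values cannot show whether samples were paired. Alternatives changed the filter, the probe set per gene, array weights, the arrays in the fit, the variance prior, the normalization and the block.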

Additional observations from a re-analysis of the deposited data

How the results depend on the processing

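In all, 37 fold changes of these genes were recomputed under 22 other settings, and 28 kept their sign in every setting that was run. A fold change cannot alter with the filter, the variance prior, the threshold, the balanced block or a fit of only the groups compared. Nor can it with the choice of the brightest probe set. In those settings its sign was fixed in advance, so only the others could change it. No probe set passed the threshold in any setting, also at an adjusted p under 0.1, and the smallest limma adjusted p of a member was 0.282. For Hoxa5 1443803_x_at the joint difference from control changed sign to -0.59 with the mean of both Hoxa5 probe sets, -0.16 with array weights and -0.20 without control 3 and GFP-positive 2, and for Hoxb4 1451761_at it became 0.095 with array weights and 0.22 without those arrays, where Pbx2 1418894_s_at was -0.096. With 1 array left out at a time, the joint difference ranged from -0.20 to 0.52 for Hoxa5 1443803_x_at, -0.25 to 0.25 for Meis1 1450992_a_at, -0.40 to 0.029 for Hoxb4 1451761_at, -1.47 to 0.29 for Hoxb4 1460379_at, -0.17 to 0.76 for Pbx2 1418894_s_at and -1.19 to 0.30 for Pbx3 1421193_a_at. The same left-out arrays moved GFP-positive minus GFP-negative from -0.73 to 0.10 for Hoxa10 and from -0.64 to 0.15 for Hoxa5 1448926_at, and GFP-positive minus control from -0.52 to 0.11 for Pbx2 1449261_at. For Hoxa5 1448926_at and Hoxa9 1455626_at the joint ranges were -1.44 to -1.04 and -0.76 to -0.42. The cause of these moves was not tested.

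The replicate block changed no call: 0 probe sets passed in each comparison, and 1564, 1295, 723 and 1666 had an unadjusted limma p under 0.05, in the order GFP-positive against control, GFP-negative against control, between the fractions, and jointly, against 1588, 1434, 733 and 1797 without it. That count fell to 805, 691, 316 and 899 with the brightest probe set per gene and to 783, 707, 259 and 886 with the mean over a gene's probe sets, since fewer features were tested. It was 2255 (GFP-negative against control) and 1235 (between the fractions) without the filter, 2197 and 1641 with array weights, and 1747 between the fractions without GFP-positive array 3. The joint comparison uses all groups, so a fit of only the groups compared does not apply to it.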
